A study of Mus musculus with 15 samples.

Results

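The first postnatal week of the mouse liver was compared with weeks 2 and 3 after birth, across all genes. The libraries were chosen by labelled age: days 1, 3 and 5 and week 1 (D1, D3, D5 and W1) formed the earlier group, and weeks 2 and 3 (W2 and W3) the later group, which made 6 of the 15 libraries of a liver time course. All were whole livers of C57BL/6, a common inbred strain of mouse, flash frozen and extracted with Trizol, and the labels name no treatment or genotype. The sources used here do not state the sex or the number of animals behind a library. There was 1 library per age, so ages stood in for replicates. Each p-value therefore sets a difference against the scatter among these 6 libraries, which includes change with age inside a group. An exact permutation test of 4 against 2 libraries has 15 splits and cannot give a p below 0.0667, so single genes were tested with 1 fit across all genes (limma).

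The liver is the main blood-forming organ of the fetus. After birth this role passes to the bone marrow and spleen, and red cell precursors, immature granulocytes and early B cells leave the organ. Hepatocytes, the parenchymal cells that make most plasma proteins, divide in the young animal, lose fetal products such as alpha-fetoprotein and insulin-like growth factor 2, and gain the enzymes that detoxify foreign compounds and make bile acids. Mouse pups live on fat-rich milk before they turn to solid food.

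Values are FPKM, fragments scaled to transcript length and library size, and differences are on the log2(FPKM + 1) scale, which understates the change of low genes. The estimated depth was about 16300000 to 17200000 fragments, at which 3 fragments on 1000 bases equal 0.174 to 0.184 FPKM. Hepatocyte transcripts were abundant in all 6 libraries, with 23677, 26159, 26842 and 25674 FPKM at D1, D3, D5 and W1, and 32174 and 17853 FPKM at W2 and W3 for Ahsg (fetuin A), and the albumin gene Alb had a failed estimate in 5 of them. Globin transcripts made up 11.3% and 13.4% of all FPKM at D1 and D3, 5.34% and 4.44% at D5 and W1, and 0.943% and 0.745% at W2 and W3. Transcripts of the mitochondrial genome made up 11.6%, 16.0%, 22.2% and 25.5% in the first week and 20.7% and 29.1% at W2 and W3. Both shares are part of the total that FPKM divides by.

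Of 13162 genes tested, 191 rose (1.45%) and 1232 fell (9.36%) in weeks 2 and 3 at an adjusted p under 0.05 (limma, Benjamini-Hochberg adjustment). The largest falls past the test included genes of neutrophil granules, stefin A genes and red cell genes, and the largest rises included cytochrome P450 and sulfotransferase genes. The median difference over all genes was -0.18. A second rule asked for groups that did not overlap, with means of log2(FPKM + 1) at least 1 apart (2-fold). It was met by 232 genes upward (1.76%) and 1047 downward (7.95%), and 934 genes met both this rule and the test. The nearest libraries of such groups can lie closer than 2-fold. Of the calls, 13.4% were rises. This share was 36.2% after quantile normalization, which moved the median of all genes to 0.05, 28.8% with median-ratio scaling and 9.17% with globins and mitochondrial transcripts taken out of the totals. W3 and D3 decided many calls. Without W3 there were 6 rises and 21 falls, and without D3 17 rises and 151 falls. The largest step between neighbouring ages in the direction of the call was that from W1 to W2 for 84.3% of the genes that rose and 84.7% of those that fell. Over all genes tested, the largest step in either direction was that from W1 to W2 for 28.1%, which is not the same measure. The grouping itself places its boundary there.

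**Figure D1:**
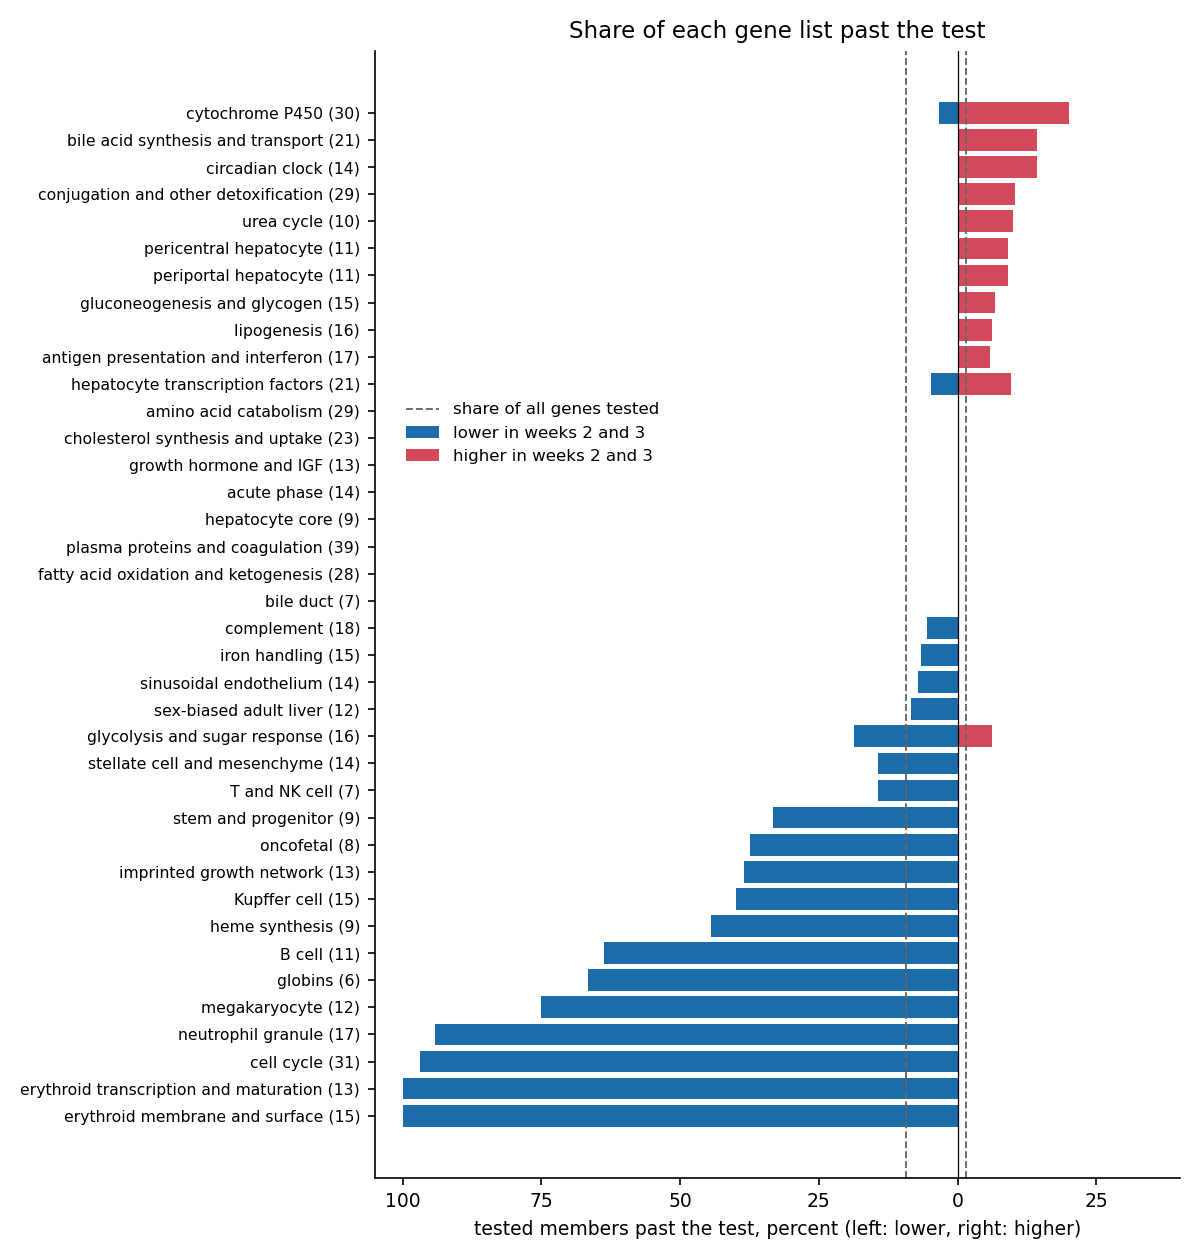
Share of each gene list past the test, in percent of its tested members (number in brackets), with members lower in weeks 2 and 3 to the left and members higher to the right. Dashed lines mark the shares over all genes tested, 9.36% lower and 1.45% higher; both erythroid lists reach 100% on the left and cytochrome P450 genes reach 20% on the right.

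Red cell genes fell in weeks 2 and 3. All 15 tested genes of the erythroid membrane and surface and all 13 tested genes of erythroid transcription and maturation passed the test downward, beside 9.36% of all genes, with median differences of -3.59 and -3.03. Slc4a1 encodes band 3, which exchanges chloride and bicarbonate across the red cell membrane (gene27518, chromosome 11, 102348820 to 102365281, build GRCm38.p2). Its level was 261, 353, 121 and 93.8 FPKM at D1, D3, D5 and W1, and 6.32 and 3.69 FPKM at W2 and W3. D1 and D3 were the highest, D5 and W1 intermediate, and both later libraries lay far below the lowest of the first week. The log2 difference was -4.95 ± 0.54 (SE), adjusted p = 0.0113. Bulk tissue cannot tell fewer cells of a type from less RNA per cell, which holds for every cell type described here. The call was lost when W3 was left out, and without it none of the 28 members of these lists passed. Without D3, 12 of 15 and 8 of 13 passed.

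Transcription factors of the lineage fell as well. Hemgn (hemogen, a nuclear factor of blood cell development, gene8575, chromosome 4, 46393989 to 46404183) was at 73.8, 98.3, 32.4 and 28.3 FPKM at D1, D3, D5 and W1, and 1.22 and 0.824 FPKM at W2 and W3, a difference of -4.69 ± 0.50 (SE), adjusted p = 0.0113. Gata1, the master transcription factor of red cells and megakaryocytes (gene41306, chromosome X, 7959260 to 7967910), was at 32.7, 34.97, 10.1 and 10.1 FPKM at D1, D3, D5 and W1, and 0.794 and 0.579 FPKM at W2 and W3. The difference was -3.54 ± 0.55 (SE), adjusted p = 0.0210. Klf1, which switches on adult globin and membrane genes, was at 62.1, 75.3, 22.7 and 21.1 FPKM at D1, D3, D5 and W1, and 3.02 and 5.02 FPKM at W2 and W3, and W3 lay above W2. Its difference was -3.02 ± 0.55 (SE), adjusted p = 0.0248. Epor, the receptor through which erythropoietin keeps red cell precursors alive, was at 42.999, 35.6, 13.1 and 12.3 FPKM at D1, D3, D5 and W1, and 3.72 and 2.07 FPKM at W2 and W3, with a difference of -2.62 ± 0.54 (SE), adjusted p = 0.0314. Car2, a carbonic anhydrase and the most abundant gene of this list, was at 337, 513, 192 and 213 FPKM at D1, D3, D5 and W1, and 40.5 and 33.8 FPKM at W2 and W3 and was the highest of the list in all 6 libraries. The groups of all 28 genes did not overlap and had means at least 2-fold apart, beside 7.95% of all genes.

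The promoters of Epor and Rhd (the Rh blood group protein, 81.5, 99.3, 31.2 and 29.1 FPKM at D1, D3, D5 and W1, and 2.08 and 1.05 FPKM at W2 and W3) are shown because both genes fell and both windows hold the full GATA motif AGATAAG, which GATA factors bind. The sequences come from RefSeq (GRCm38.p6), run 5′ to 3′ on the strand of the gene from 250 bases before its start to 50 after, and have the motif in capitals on either strand. The window of Epor is chr9:21963527-21963826 (minus strand) and that of Rhd chr4:134864286-134864585 (plus strand).
Epor: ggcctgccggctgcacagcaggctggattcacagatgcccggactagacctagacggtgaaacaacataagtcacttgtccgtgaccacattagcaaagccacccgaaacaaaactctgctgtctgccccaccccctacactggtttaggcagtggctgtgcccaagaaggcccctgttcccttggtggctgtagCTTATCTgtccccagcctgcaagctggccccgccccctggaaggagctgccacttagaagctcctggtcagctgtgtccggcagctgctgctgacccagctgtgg
Rhd: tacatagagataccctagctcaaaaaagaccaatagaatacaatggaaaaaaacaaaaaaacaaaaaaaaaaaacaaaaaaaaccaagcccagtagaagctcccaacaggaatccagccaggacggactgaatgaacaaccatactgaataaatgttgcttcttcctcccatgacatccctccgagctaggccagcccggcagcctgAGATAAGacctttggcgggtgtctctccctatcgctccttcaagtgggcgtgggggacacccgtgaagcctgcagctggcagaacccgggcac
In Epor the motif reads CTTATCT from 55 bases before the start, and in Rhd AGATAAG from 43 bases before it. Of 9 members of the erythroid transcription list with a promoter in the reference, 2 hold this motif (Epor and Trim10), and of 9 membrane genes 1 does, while 3.07% of 27025 promoters of that length and 1.96% of those of genes tested hold it. These are matches of letters in a fixed window.

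The adult globins fell. Hba-a1, an adult alpha globin chain (gene25730, chromosome 11, 32283672 to 32284486), was at 38991, 45102, 16012 and 14244 FPKM at D1, D3, D5 and W1, and 2770.3 and 2754 FPKM at W2 and W3. Hbb-bt, an adult beta chain, was at 14482, 16793, 6524 and 5676 FPKM at D1, D3, D5 and W1, and 1069 and 832 FPKM at W2 and W3. The first week fell into 2 high and 2 lower libraries, and W2 and W3 were close to each other. Differences were -3.19 ± 0.53 (SE), adjusted p = 0.0224 for Hba-a1 and -3.37 ± 0.50 (SE), adjusted p = 0.0195 for Hbb-bt. Hba-a1 and Hba-a2 are near-identical copies whose reads may have been split between them. All 4 adult globins fell (66.7% of 6 tested globins, beside 9.36% of all genes), while the embryonic chains Hba-x and Hbb-y did not pass. Without D3 only 1 adult globin passed, and without W3 none did. In heme synthesis 4 of 9 genes fell (44.4%, beside 9.36% of all genes), with a list median of -1.10. Alas2, the erythroid form of the first enzyme of the pathway, was at 234, 255, 98.4 and 84.9 FPKM at D1, D3, D5 and W1, and 20.4 and 17.2 FPKM at W2 and W3, a difference of -2.93 ± 0.48 (SE), adjusted p = 0.0222. Ppox and Cpox, which act further along it, were among the others that fell, with a log2 difference of -1.60 for Ppox. Alas1, the form used by hepatocytes, was at 31.7, 18.8, 34.6 and 53.9 FPKM at D1, D3, D5 and W1, and 35.4 and 56.3 FPKM at W2 and W3, with overlapping groups and no call. In heme synthesis 0 of 9 genes passed without D3 or without W3, and 1 without D1, without D5, after quantile normalization or with median ratios.

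Megakaryocyte genes fell for the most part, and progenitor genes in part. Of 12 tested megakaryocyte genes 9 fell (75%), with a median of -2.02. Of 9 tested stem and progenitor genes 3 fell (33.3%), with a median of -0.89. The share over all genes was 9.36%, and their median was -0.18. Ppbp encodes a platelet chemokine and was at 61.7, 51.6, 23.3 and 26.6 FPKM at D1, D3, D5 and W1, and 0.955 and 2.003 FPKM at W2 and W3, a difference of -3.99 ± 0.42 (SE), adjusted p = 0.0111. Gp9, part of the platelet receptor for von Willebrand factor, was at 20.9, 15.7, 6.52 and 7.84 FPKM at D1, D3, D5 and W1, and 0.389 and 0.506 FPKM at W2 and W3, a difference of -3.11 ± 0.43 (SE), adjusted p = 0.0186. Pf4, platelet factor 4, was at 100.4, 51.7, 31.95 and 33.8 FPKM at D1, D3, D5 and W1, and 7.14 and 4.81 FPKM at W2 and W3. Ppbp and Pf4 have a second copy of their symbol on a scaffold outside the chromosomes, so their values are uncertain. Among progenitor genes Lmo2, a bridging factor of blood transcription complexes, was at 61.9, 59.2, 23.4 and 22.6 FPKM at D1, D3, D5 and W1, and 6.37 and 3.83 FPKM at W2 and W3, and Myb, which keeps progenitors dividing, was at 13.2, 6.897, 3.54 and 2.21 FPKM at D1, D3, D5 and W1, and 0.2603 and 0.1002 FPKM at W2 and W3. Their differences were -2.69 ± 0.48 (SE), adjusted p = 0.0235 and -2.43 ± 0.54 (SE), adjusted p = 0.0367. Spi1, the PU.1 factor of myeloid cells, was the other progenitor gene that fell (-1.46). Kit and Cd34, surface proteins of progenitors, were low throughout, at 2.38 to 4.98 FPKM and 1.85 to 5.91 FPKM in the first week, and neither passed. The megakaryocyte count was 2 without D3 and 0 without W3, and the progenitor count was 0 without either.

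Neutrophil granule genes and the stefin A cluster held 11 of the 12 largest falls among the genes that passed at a mean of at least 10 FPKM (predicted genes and genes repeated on scaffolds not counted). Of 17 tested granule genes 16 fell (94.1%, beside 9.36% of all genes), with a median of -3.83, and the summed level of the list was 5987, 3369, 3555 and 2150.1 FPKM at D1, D3, D5 and W1, and 151 and 86.6 FPKM at W2 and W3. S100a9, one chain of calprotectin and the most abundant member (gene6906, chromosome 3, 90692630 to 90695721), was at 2095, 1117, 1205 and 783 FPKM at D1, D3, D5 and W1, and 53.8 and 19.7 FPKM at W2 and W3. The lowest library of the first week, W1, lay far above both later ones. The difference was -5.18 ± 0.49 (SE), adjusted p = 0.00832. Camp, the antimicrobial peptide cathelicidin (gene23050, chromosome 9, 109847377 to 109849456), was at 573, 280.2, 323 and 188 FPKM at D1, D3, D5 and W1, and 8.17 and 1.73 FPKM at W2 and W3, and Ltf, the iron-binding lactoferrin (gene23091, chromosome 9, 111019292 to 111042766), was at 137, 79.3, 92.9 and 54.6 FPKM at D1, D3, D5 and W1, and 2.32 and 0.595 FPKM at W2 and W3. Their differences were -5.98 ± 0.56 (SE), adjusted p = 0.00832 and -5.24 ± 0.41 (SE), adjusted p = 0.00660. D1 was the highest library and W1 the lowest of the first week in all 3 genes, and no groups overlapped.

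Genes of both early and late granules fell. Elane, neutrophil elastase of the primary granules, was at 83.5, 50.6, 47.6 and 23.1 FPKM at D1, D3, D5 and W1, and 1.31 and 0.402 FPKM at W2 and W3, and Ngp, a cathelicidin-like protein of the secondary granules, was at 573, 297, 368 and 230 FPKM at D1, D3, D5 and W1, and 11.2 and 3.94 FPKM at W2 and W3. The differences were -4.72 ± 0.47 (SE), adjusted p = 0.00911 and -5.48 ± 0.46 (SE), adjusted p = 0.00660. Mpo, myeloperoxidase, fell by 4.65 on the log2 scale, with a second copy of the symbol on a scaffold. Lcn2 (lipocalin 2), which hepatocytes also make, was at 232, 166, 159 and 129 FPKM at D1, D3, D5 and W1, and 23.3 and 30.8 FPKM at W2 and W3, and was the highest of the list at W3. Cxcr2, a receptor of mature neutrophils, was at 1.97, 1.13, 1.21 and 0.687 FPKM at D1, D3, D5 and W1, and 0.274 and 0.152 FPKM at W2 and W3, and was the 1 gene of the list that did not pass. The count of granule genes was 13 without D3, 7 without W3 and 7 without a filter on low values. Ltf, Ngp and Stfa3 kept their calls in every alternative that was run.

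Stefin A genes encode small inhibitors of cathepsins and lie side by side on chromosome 16. This cluster was singled out after its values were seen, so its count of calls partly restates that choice. Of 7 tested genes 6 fell, beside 9.36% of all genes. Their summed level was 4384, 2172, 2468 and 1493 FPKM at D1, D3, D5 and W1, and 67.3 and 13.96 FPKM at W2 and W3. Stfa1 (gene36165, chromosome 16, 36277148 to 36285371) was at 1285, 598, 719.8 and 394 FPKM at D1, D3, D5 and W1, and 17.6 and 2.39 FPKM at W2 and W3, a difference of -6.43 ± 0.70 (SE), adjusted p = 0.0113. Stfa3 (gene36171, chromosome 16, 36450537 to 36455392) was at 393, 217, 236 and 167 FPKM at D1, D3, D5 and W1, and 5.75 and 1.42 FPKM at W2 and W3, a difference of -5.90 ± 0.47 (SE), adjusted p = 0.00660. In both genes D1 was the highest library, W1 the lowest of the first week and W3 the lowest of all, and the groups did not overlap. The member that missed the test, BC117090, never exceeded 7.03 FPKM in these libraries. The copies are near-identical and reads may have been split between them, which is why their sum is given.

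Early B cell genes fell too, with 7 of 11 past the test (63.6%, beside 9.36% of all genes) and a median of -2.04. Igll1 and Vpreb1 encode the surrogate light chain that immature B cells carry. Igll1 was at 8.93, 4.42, 5.48 and 7.37 FPKM at D1, D3, D5 and W1, and 0.0883 and 0.08701 FPKM at W2 and W3, and Vpreb1 at 8.01, 2.95, 7.66 and 8.403 FPKM at D1, D3, D5 and W1, and 0.211 and 0.314 FPKM at W2 and W3. Both later values of Igll1 were below the level of 3 fragments on 1000 bases. The differences were -2.76 ± 0.25 (SE), adjusted p = 0.00832 and -2.54 ± 0.36 (SE), adjusted p = 0.0186. Cd79a, a signalling chain of the B cell receptor, was at 31.7, 23.9, 15.1 and 10.04 FPKM at D1, D3, D5 and W1, and 4.62 and 1.98 FPKM at W2 and W3, a difference of -2.25 ± 0.46 (SE), adjusted p = 0.0306. Ms4a1 (CD20), of later B cells, was at 1.97, 2.96, 2.14 and 0.637 FPKM at D1, D3, D5 and W1, and 0.574 and 0.617 FPKM at W2 and W3, with no call. Only Nkg7, a granule protein of cytotoxic cells, fell among 7 tested T and NK cell genes (14.3%, beside 9.36% of all genes), at 5.48, 5.64, 7.95 and 5.34 FPKM at D1, D3, D5 and W1, and 3.42 and 1.67 FPKM at W2 and W3, a difference of -1.03 ± 0.25 (SE), adjusted p = 0.0430. Another 7 genes of that list, including the T cell receptor chains Cd3d and Cd3e, were too low to be tested. The B cell count was 2 without D3 and 0 without W3, and Nkg7 was lost without D1, D3, D5, W1 or W3.

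Among cells resident in the liver, Kupffer cells, its macrophages, showed small falls. Of 15 Kupffer cell genes 6 fell (40%, beside 9.36% of all genes), with a median of -0.74, beside -0.18 for all genes. The summed level of the list was 1143, 973, 1098 and 931 FPKM at D1, D3, D5 and W1, and 689.5 and 651 FPKM at W2 and W3. Csf1r, the receptor for the growth factor of macrophages, was at 44.5, 42.6, 50.2 and 35.8 FPKM at D1, D3, D5 and W1, and 21.4 and 20.5 FPKM at W2 and W3, a difference of -1.001 ± 0.18 (SE), adjusted p = 0.0239. Timd4, a receptor for dying cells carried by embryo-derived Kupffer cells, was at 11.6, 14.1, 17.4 and 10.3 FPKM at D1, D3, D5 and W1, and 7.23 and 4.68 FPKM at W2 and W3, and Emr1, the F4/80 antigen, was at 14.7, 17.1, 25.2 and 11.4 FPKM at D1, D3, D5 and W1, and 7.02 and 6.15 FPKM at W2 and W3. These groups were apart by margins of less than 2-fold between the nearest libraries. Clec4f, a lectin found on Kupffer cells, was at 67.6, 82.5, 94.1 and 79.6 FPKM at D1, D3, D5 and W1, and 77.5 and 76.7 FPKM at W2 and W3, with W2 and W3 inside the range of the first week and no call. The 3 genes of complement C1q are made by macrophages, and C1qb and C1qc fell while C1qa did not pass, at 161, 130.4, 145 and 134 FPKM at D1, D3, D5 and W1, and 93.9 and 97.8 FPKM at W2 and W3. None of the 15 genes passed without D3, without D5, without W3 or in 1 fit to all 15 libraries, and 3 passed after quantile normalization and 1 with median ratios.

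Of 14 sinusoidal endothelial genes 1 fell (7.14%, beside 9.36% of all genes), Stab1, a scavenger receptor, at 18.1, 16.7, 17.7 and 14.999 FPKM at D1, D3, D5 and W1, and 9.99 and 9.702 FPKM at W2 and W3 (log2 difference -0.72, SE 0.15, adjusted p = 0.0320). Clec4g, a lectin of these cells and the most abundant of the list, was at 37.5, 42.8, 52.3 and 43.7 FPKM at D1, D3, D5 and W1, and 58.5 and 50.9 FPKM at W2 and W3. Of 14 stellate cell and mesenchymal genes 2 fell (14.3%), both chains of type I collagen, so that neither share was far from that of all genes. Col1a1 was at 35.4, 36.8, 42.3 and 35.4 FPKM at D1, D3, D5 and W1, and 18.7 and 14.3 FPKM at W2 and W3, a difference of -1.14 ± 0.18 (SE), adjusted p = 0.0208. Dcn, the proteoglycan decorin, was at 69.1, 58.4, 68.3 and 62.02 FPKM at D1, D3, D5 and W1, and 86.6 and 102 FPKM at W2 and W3, and both later libraries lay above the first week without a call. No bile duct gene passed among 7 tested (limma, with all 13162 genes adjusted together). The list medians were -0.52 for endothelium, -0.19 for stellate cells and -0.23 for bile duct, next to -0.18 for all genes, and after quantile normalization the last 2 turned to 0.07 and 0.10. The calls of Stab1, Col1a1 and Col1a2 were lost without W3 and without D3, and those of Stab1 and Col1a2 after quantile normalization.

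**Figure D2:**
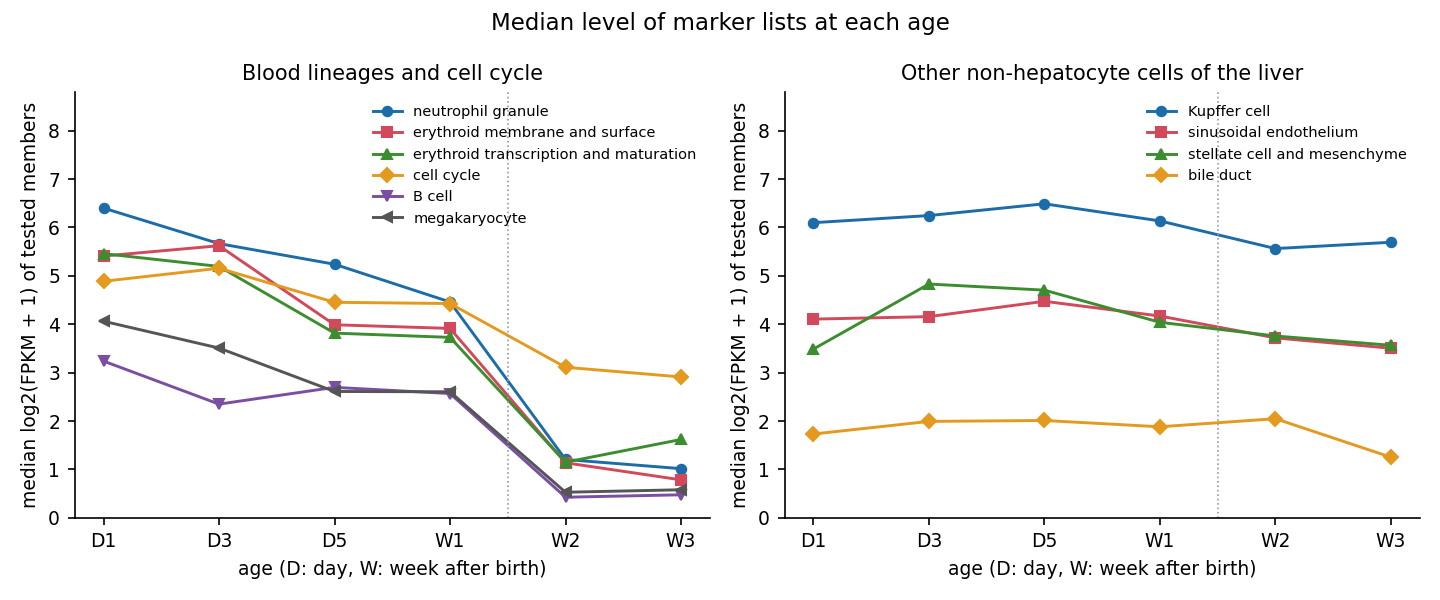
Median level of marker lists at each age, in log2(FPKM + 1) over tested members, with the 4 ages of the first week left of the dotted line and W2 and W3 right of it. Neutrophil granule genes go from 6.401 at D1 to 4.46 at W1 and 1.21 at W2, cell cycle genes from 4.43 at W1 to 3.11 at W2, while Kupffer cell genes stay between 5.56 and 6.49.

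Cell division genes fell and stayed measurable at W3. Of 31 tested genes 30 fell (96.8%, beside 9.36% of all genes), with a median of -1.60. The groups of those 30 did not overlap and had means at least 2-fold apart, beside 7.95% of all genes. The summed level of the list was 1244, 1568, 926 and 938 FPKM at D1, D3, D5 and W1, and 364 and 336 FPKM at W2 and W3. Mki67, the Ki-67 protein of dividing cells (gene18815, chromosome 7, 135689782 to 135716412), was at 42.5, 42.95, 24.9 and 26.9 FPKM at D1, D3, D5 and W1, and 7.81 and 4.0002 FPKM at W2 and W3. The lowest library of the first week was about 3 times the higher of the later ones. The difference was -2.37 ± 0.32 (SE), adjusted p = 0.0181. Ube2c, which marks mitotic cyclins for destruction, was at 189.7, 229, 105 and 113 FPKM at D1, D3, D5 and W1, and 37.1 and 20.04 FPKM at W2 and W3, a difference of -2.42 ± 0.39 (SE), adjusted p = 0.0220. Ccnb1 (cyclin B1) was at 22.5, 31.5, 18.7 and 20.3 FPKM at D1, D3, D5 and W1, and 7.48 and 3.71 FPKM at W2 and W3, a difference of -1.91 ± 0.29 (SE), adjusted p = 0.0208.

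Between W2 and W3 the levels of DNA synthesis genes and of mitotic genes mostly moved in opposite directions, with 1 library at each age. Cdk1, the kinase that starts mitosis, was at 20.9, 26.1, 16.3 and 18.99 FPKM at D1, D3, D5 and W1, and 9.44 and 5.76 FPKM at W2 and W3. Mcm6, part of the helicase that opens DNA, was at 42.2, 66.004, 51.7 and 49.03 FPKM at D1, D3, D5 and W1, and 16.3 and 27.6 FPKM at W2 and W3. Rrm2, the regulated subunit of ribonucleotide reductase, was at 72.9, 115, 56.6 and 57.7 FPKM at D1, D3, D5 and W1, and 11.2 and 16.9 FPKM at W2 and W3, and Pcna, the sliding clamp of DNA polymerase, was at 174, 215, 134 and 134 FPKM at D1, D3, D5 and W1, and 52.4 and 77.2 FPKM at W2 and W3. The 12 genes of the list with a higher value at W3 than at W2 all act in the G1/S transition or DNA synthesis, among them all 6 Mcm helicase genes, Pcna, Rrm1, Rrm2 and Tyms. The other 19, most of them mitotic genes such as Mki67, Cdk1, Ccnb1 and Ube2c, were lower at W3, with 1 library at each age and no test of that step. The differences from the first week were -1.34 ± 0.25 (SE), adjusted p = 0.0256 for Cdk1, -1.24 ± 0.26 (SE), adjusted p = 0.0337 for Mcm6 and -2.31 ± 0.32 (SE), adjusted p = 0.0186 for Rrm2. Tyms, thymidylate synthase, was at 8.83, 12.1, 8.82 and 11.5 FPKM at D1, D3, D5 and W1, and 6.31 and 6.53 FPKM at W2 and W3, and missed the test. Without D3 9 genes of the list passed, and without W3 none. Erythroid and granulocyte precursors also divide, and all 28 erythroid genes and 16 of 17 granule genes fell between the same groups, while the 9 hepatocyte core genes had a median of 0.30. The part of each cell type in the cell cycle falls was not tested.

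Promoters of Cdk1, Mki67 and Mcm6 are shown because 30 of 31 cell cycle genes fell, and 3 short motifs known from cell cycle promoters were searched in them. These are CCAAT, which the factor NF-Y binds, the CHR element TTTGAA of genes expressed in mitosis, and the E2F sites TTTCCCGC and TTTGGCGC of replication genes. Windows are chr10:69352863-69353162 (minus strand) for Cdk1, chr7:135716330-135716629 (minus strand) for Mki67 and chr1:128359656-128359955 (minus strand) for Mcm6, from RefSeq (GRCm38.p6) and laid out in the same way. Capitals mark all 3 motifs on either strand, and no matches overlap in these windows.
Cdk1: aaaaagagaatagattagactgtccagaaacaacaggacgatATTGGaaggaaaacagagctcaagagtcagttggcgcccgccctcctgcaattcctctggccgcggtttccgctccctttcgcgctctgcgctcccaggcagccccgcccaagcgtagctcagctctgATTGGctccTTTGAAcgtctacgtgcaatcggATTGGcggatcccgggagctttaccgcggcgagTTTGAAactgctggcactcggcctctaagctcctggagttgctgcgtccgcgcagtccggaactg
Mki67: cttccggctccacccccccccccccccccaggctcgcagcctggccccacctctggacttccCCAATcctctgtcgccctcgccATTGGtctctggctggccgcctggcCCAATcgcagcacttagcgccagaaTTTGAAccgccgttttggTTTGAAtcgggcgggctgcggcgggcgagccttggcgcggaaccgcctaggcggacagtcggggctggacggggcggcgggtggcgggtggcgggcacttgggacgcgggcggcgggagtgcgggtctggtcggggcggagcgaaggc
Mcm6: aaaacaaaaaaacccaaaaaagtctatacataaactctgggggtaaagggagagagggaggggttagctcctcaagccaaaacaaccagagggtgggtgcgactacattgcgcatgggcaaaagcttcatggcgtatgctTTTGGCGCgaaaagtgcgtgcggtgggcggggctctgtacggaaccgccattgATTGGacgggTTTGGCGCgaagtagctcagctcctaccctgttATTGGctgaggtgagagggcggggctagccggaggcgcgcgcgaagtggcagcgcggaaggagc
Cdk1 holds 3 CCAAT boxes and 2 CHR elements, the nearest of them 15 bases before the start. Mki67 holds 3 and 2, at 98 to 188 bases before the start. Mcm6 has 2 CCAAT boxes and 2 E2F sites (TTTGGCGC, at 47 and 110 bases before the start) and no CHR element in this window. Of 25 list members with a promoter in the reference, 21 hold CCAAT (84.0%), 12 hold the CHR letters (48.0%) and 4 hold an E2F site (16.0%). Over 27025 promoters the shares are 37.9%, 18.1% and 1.63%, and over the promoters of all genes tested 38.9%, 11.9% and 3.13%. Shares varied among other lists too. CCAAT stood in 93.3% of 15 promoters of cholesterol synthesis and uptake genes, a list without calls. The CHR letters stood in 37.9% of 29 P450 promoters, a list with 1 fall. Both motifs were absent from 13 acute phase promoters. The 4 E2F matches were all in helicase genes: Mcm3, Mcm5, Mcm6 and Mcm7. Among all genes that fell 39.1% of promoters hold CCAAT, 15.2% the CHR letters and 5.33% an E2F site. Among all that rose the shares are 44.0%, 16.3% and 2.84%.

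Genes of the oncofetal and imprinted growth lists fell in part, with W3 far below W2 in many of them. Of 8 tested oncofetal genes 3 fell (37.5%), with a median of -1.86. These were Cd24a, Dlk1 and Cdkn3 (log2 difference -1.09 for Cdkn3), and Dlk1 is on both lists. Of 13 genes of the imprinted growth network 5 fell (38.5%), with a median of -1.73. Over all genes 9.36% fell and the median was -0.18. Afp, alpha-fetoprotein, the albumin-like protein of fetal plasma (gene11598, chromosome 5, 90490714 to 90508907), was at 8884, 15390, 12868 and 10639 FPKM at D1, D3, D5 and W1, and 2899 and 48.9 FPKM at W2 and W3. The later libraries lay below all of the first week and differed from each other by a larger factor than W2 from W1. The log2 difference was -4.94 ± 1.36 (SE) and missed the test, with an adjusted p of 0.0605. Igf2, the fetal growth factor (gene19035, chromosome 7, 142650768 to 142666869), was at 1334, 1603, 1779 and 1889.7 FPKM at D1, D3, D5 and W1, and 484 and 5.899 FPKM at W2 and W3, and H19, the noncoding RNA of the same imprinted domain (gene19032, chromosome 7, 142575532 to 142578146), was at 4872, 4973, 5829.5 and 5891 FPKM at D1, D3, D5 and W1, and 3126 and 272 FPKM at W2 and W3. Their differences, -4.82 ± 1.41 (SE) and -2.54 ± 0.83 (SE), missed the test too, with adjusted p of 0.0693 and 0.0887.

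The 5 imprinted genes that passed were Meg3, Dlk1, Grb10, Mest and Plagl1. Meg3, a maternally expressed noncoding RNA of the Dlk1 domain on chromosome 12, was at 41.4, 82.03, 82.5 and 87.5 FPKM at D1, D3, D5 and W1, and 6.35 and 1.76 FPKM at W2 and W3. D1 was the lowest library of the first week and still above W2 by a wide margin. The difference was -3.99 ± 0.45 (SE), adjusted p = 0.0125. Dlk1, a surface protein of hepatoblasts from the same domain, was at 38.9, 27.2, 18.5 and 8.51 FPKM at D1, D3, D5 and W1, and 4.17 and 1.09 FPKM at W2 and W3, a difference of -2.70 ± 0.59 (SE), adjusted p = 0.0359. Both symbols have a second copy on a scaffold and are uncertain. Grb10, an inhibitor of growth factor receptors, was at 69.3, 70.9, 70.2 and 60.5 FPKM at D1, D3, D5 and W1, and 34.5 and 7.45 FPKM at W2 and W3 (log2 difference -1.99, SE 0.50, adjusted p = 0.0473). Mest was at 22.7, 31.3, 35.8 and 32.02 FPKM at D1, D3, D5 and W1, and 11.4 and 3.598 FPKM at W2 and W3 (log2 difference -2.04, SE 0.39, adjusted p = 0.0261) and Plagl1, a regulator of this network, at 8.32, 6.13, 6.598 and 5.39 FPKM at D1, D3, D5 and W1, and 2.82 and 0.886 FPKM at W2 and W3 (log2 difference -1.49, SE 0.29, adjusted p = 0.0293). Cd24a, a surface protein of both liver progenitors and immature blood cells, was at 287, 418, 140.2 and 125 FPKM at D1, D3, D5 and W1, and 12.2 and 5.64 FPKM at W2 and W3, a difference of -4.52 ± 0.54 (SE), adjusted p = 0.0135. The D1 and D3 values of Cd24a were the highest, as in erythroid genes and in cell cycle genes such as Ube2c. The cell type behind this order was not tested. Peg3, which belongs to the same network, was at 30.4, 16.9, 18.95 and 16.6 FPKM at D1, D3, D5 and W1, and 34.8 and 6.98 FPKM at W2 and W3, with its highest value at W2. The imprinted count was 1 without D3, 1 without D5 and 0 without W3, and the oncofetal count 1, 1 and 0. Without W2, 8 of 8 oncofetal and 7 of 13 imprinted genes passed, with W3 as the 1 later library.

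**Figure D3:**
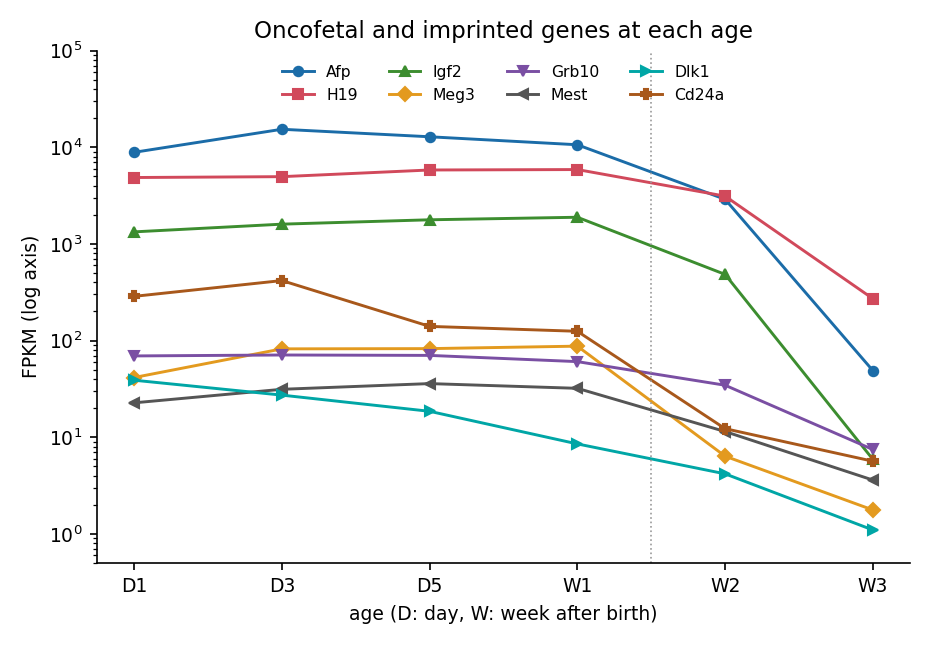
FPKM of 8 oncofetal and imprinted genes at each age on a log axis, with 1 point per library and the dotted line between W1 and W2. Igf2 goes from 484 FPKM at W2 to 5.90 at W3 and Afp from 2899 to 48.9, while Meg3 and Cd24a drop mainly between W1 and W2.

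Cytochrome P450 genes rose in part, and Cyp2c29 had the largest rise among all genes tested. Of 30 tested genes 6 rose, beside 1.45% of all genes, and 1 fell, with a list median of 0.83. These enzymes oxidise drugs, steroids and fatty acids in the endoplasmic reticulum. Cyp2c29 (gene40813, chromosome 19, 39287044 to 39330713) was at 1.16, 1.21, 1.77 and 1.79 FPKM at D1, D3, D5 and W1, and 160.1 and 1117 FPKM at W2 and W3. It stayed below 2 FPKM through the first week, and both later libraries lay far above it. The means were 1.48 ± 0.345 FPKM (SD, n = 4) in the first week and 639 ± 677 FPKM (SD, n = 2) in weeks 2 and 3, and the log2 difference was 7.43 ± 0.66 (SE), adjusted p = 0.00758. This call held in every alternative that was run. Cyp2c50 (gene40824, chromosome 19, 40089679 to 40113955) was at 3.92, 4.26, 21.5 and 28.01 FPKM at D1, D3, D5 and W1, and 85.5 and 624 FPKM at W2 and W3. D5 and W1 lay above D1 and D3, and W2 and W3 above all of them. The difference was 4.35 ± 1.00 (SE), adjusted p = 0.0397.

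Cyp2c29 and Cyp2c50 belong to the Cyp2c genes of chromosome 19, which were singled out after their values were seen. Among them 4 of 11 tested genes rose and none fell, beside 1.45% and 9.36% of all genes, and this count partly restates that choice. Cyp2c37 (gene40822, chromosome 19, 39992424 to 40012243) was at 66.7, 34.7, 86.6 and 66.2 FPKM at D1, D3, D5 and W1, and 473 and 619.6 FPKM at W2 and W3, a difference of 3.14 ± 0.36 (SE), adjusted p = 0.0125. Cyp2c68 was at 128, 135, 141 and 134 FPKM at D1, D3, D5 and W1, and 245 and 293 FPKM at W2 and W3, and rose by 0.99 on the log2 scale. Cyp2c40 was at 48.7, 90.8, 65.3 and 61.6 FPKM at D1, D3, D5 and W1, and 44.6 and 71.6 FPKM at W2 and W3, and Cyp2c69 at 26.9, 73.2, 33.3 and 23.6 FPKM at D1, D3, D5 and W1, and 28.7 and 28.6 FPKM at W2 and W3, with the groups overlapping. Cyp2c44, which lies apart from the other Cyp2c genes (44005022 to 44029247), was at 69.2, 91.3, 132 and 129 FPKM at D1, D3, D5 and W1, and 91.8 and 24.6 FPKM at W2 and W3, lowest at W3. The summed level of all Cyp2c genes was 378, 524, 587 and 530.3 FPKM at D1, D3, D5 and W1, and 1300.2 and 3511 FPKM at W2 and W3. 

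Outside the Cyp2c genes Cyp2e1, which oxidises ethanol and is the most abundant P450 gene of the list (gene18929, chromosome 7, 140763832 to 140774981), was at 728, 773, 1179 and 1073 FPKM at D1, D3, D5 and W1, and 2419 and 2289 FPKM at W2 and W3. Both later libraries stood at about 2 times the highest of the first week. The difference was 1.36 ± 0.27 (SE), adjusted p = 0.0294. Cyp2d13 (gene34977, chromosome 15, 82636750 to 82642045) was at 1.199, 1.48, 4.66 and 6.57 FPKM at D1, D3, D5 and W1, and 49.2 and 50.4 FPKM at W2 and W3, with W2 and W3 close to each other and a difference of 3.70 ± 0.51 (SE), adjusted p = 0.0181. Cyp4v3 and Cyp4f15, fatty acid hydroxylases, rose by 1.34 and 0.77. Cyp1a2, which metabolises caffeine, was at 30.6, 89.97, 82.7 and 171 FPKM at D1, D3, D5 and W1, and 63.6 and 800.3 FPKM at W2 and W3, and had no call, with W2 inside the first week's range. The P450 counts were 2 rises and no fall without D3, 1 rise and 1 fall without W3, 1 rise without a filter on low values, and 2 rises and 1 fall after quantile normalization. Cyp2e1 and Cyp2c50 were among the calls lost without D3.

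The Cyp3a genes of chromosome 5 moved in both directions. Cyp3a41a (gene12792, chromosome 5, 145694049 to 145720136) was at 76.000, 77.05, 94.4 and 117 FPKM at D1, D3, D5 and W1, and 13.1 and 0.191 FPKM at W2 and W3. It was highest at W1, far lower at W2, and near the level of 3 fragments at W3. The difference was -4.47 ± 0.84 (SE), adjusted p = 0.0259. Its near-identical copy Cyp3a41b was at 64.7, 63.1, 71.97 and 96.7 FPKM at D1, D3, D5 and W1, and 11.4 and 0.157 FPKM at W2 and W3 (log2 difference -4.29, SE 0.81, adjusted p = 0.0259), and reads may have been split between them. Cyp3a16 and Cyp3a44 had no call: Cyp3a16 was at 124, 133, 168 and 154 FPKM at D1, D3, D5 and W1, and 127 and 20.8 FPKM at W2 and W3, and Cyp3a44 at 97.3, 102, 112 and 117 FPKM at D1, D3, D5 and W1, and 84.6 and 3.91 FPKM at W2 and W3, both low only at W3. Cyp3a11, the main Cyp3a gene of the adult liver, was at 312, 204, 359.9 and 455 FPKM at D1, D3, D5 and W1, and 409 and 456 FPKM at W2 and W3, with both later libraries inside the first week's range or within 1 FPKM of it. Cyp3a25 was at 158, 34.9, 65.9 and 68.7 FPKM at D1, D3, D5 and W1, and 114 and 178 FPKM at W2 and W3. Of 8 tested Cyp3a genes, 1 rose (Cyp3a59) and 2 fell, beside 1.45% and 9.36% of all genes. These genes were also singled out after their values were seen. The calls of both Cyp3a41 copies were lost without D3 and without D5.

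**Figure D4:**
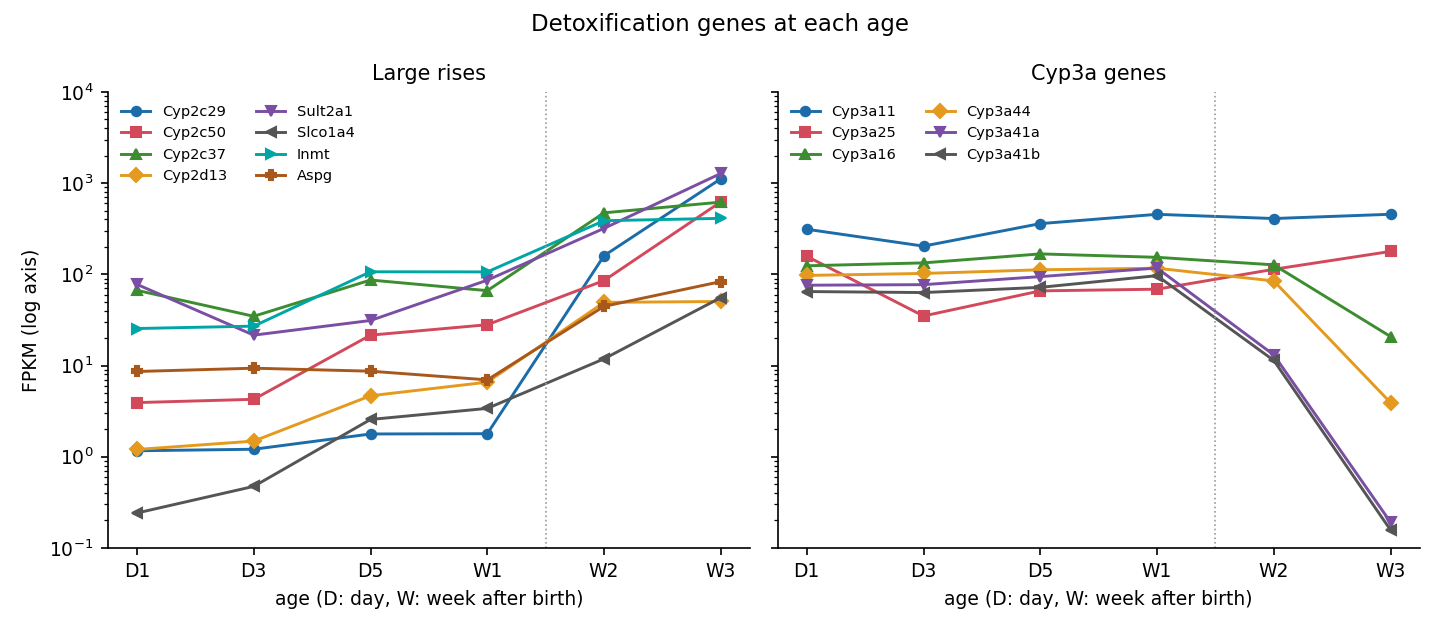
FPKM of detoxification genes at each age on a log axis, with 1 point per library: 8 genes with large rises on the left and 6 Cyp3a genes on the right. Cyp2c29 climbs from 1.79 FPKM at W1 to 1117 at W3, and Cyp3a41a drops from 117 to 0.191 while Cyp3a11 stays between 204 and 456.

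Promoters of Cyp3a11 and Cyp3a41a are set side by side because Cyp3a41a fell and Cyp3a11, on the same stretch of chromosome 5, had no call. Cyp3a44, which lies between these 2 genes, had no call either. The windows are chr5:145879805-145880104 (minus strand) and chr5:145720087-145720386 (minus strand), from RefSeq (GRCm38.p6). Capitals mark the motif CAAAGTCCA, bound by HNF4, a nuclear receptor of hepatocytes, searched on both strands.
Cyp3a11: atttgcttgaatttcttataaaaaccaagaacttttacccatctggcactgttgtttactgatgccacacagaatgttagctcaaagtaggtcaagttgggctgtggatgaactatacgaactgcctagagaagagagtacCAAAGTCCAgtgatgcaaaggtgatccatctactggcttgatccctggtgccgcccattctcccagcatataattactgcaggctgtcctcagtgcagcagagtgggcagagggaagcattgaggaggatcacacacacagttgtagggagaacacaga
Cyp3a41a: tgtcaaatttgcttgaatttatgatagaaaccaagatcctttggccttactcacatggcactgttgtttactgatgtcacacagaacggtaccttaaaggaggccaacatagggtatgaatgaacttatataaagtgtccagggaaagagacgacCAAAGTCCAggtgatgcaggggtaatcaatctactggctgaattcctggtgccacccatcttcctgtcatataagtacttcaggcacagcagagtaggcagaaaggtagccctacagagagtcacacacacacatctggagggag
Both hold the motif, from 109 bases before the start in Cyp3a11 and from 95 bases before it in Cyp3a41a. The 2 windows share 222 identical bases over 316 aligned columns (70.3%), while Cyp3a41a and Cyp3a16 share 92.1% and Cyp3a41a and Cyp3a44 92.3%. Cyp3a16 and Cyp3a44 share 93.4%, and are 74.4% and 71.2% identical to Cyp3a11. Of 29 P450 genes with a promoter in the reference 5 hold this motif (Cyp2c40, Cyp2c70, Cyp3a11, Cyp3a16 and Cyp3a41a), beside 0.477% of 27025 promoters and 0.517% of those of genes tested, and 1 of the 7 genes past the test does.

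Enzymes that conjugate compounds to make them soluble rose in part. Of 29 tested conjugation and other detoxification genes 3 rose (10.3%, beside 1.45% of all genes) and none fell, with a median of 1.03, or 1.21 above that of all genes. Inmt, an N-methyltransferase of small amines (gene13783, chromosome 6, 55170627 to 55174990), was at 25.4, 27.03, 107 and 106 FPKM at D1, D3, D5 and W1, and 388 and 411 FPKM at W2 and W3. The first week split into 2 low and 2 higher libraries, and W2 and W3 were close. The difference was 2.89 ± 0.66 (SE), adjusted p = 0.0382. Ugt2a3, a glucuronosyltransferase, was at 2.17, 2.097, 5.603 and 4.73 FPKM at D1, D3, D5 and W1, and 9.54 and 23.8 FPKM at W2 and W3, and Sult1d1, a sulfotransferase of amines, was at 26.6, 26.1, 34.6 and 37.5 FPKM at D1, D3, D5 and W1, and 58.4 and 83.1 FPKM at W2 and W3. Their differences were 1.88 ± 0.44 (SE), adjusted p = 0.0414 and 1.15 ± 0.23 (SE), adjusted p = 0.0305. The glutathione transferase Gstm1 was at 144, 138, 201 and 239.5 FPKM at D1, D3, D5 and W1, and 284 and 2309 FPKM at W2 and W3, and Gsta3, the most abundant gene of the list, at 239.7, 241, 491 and 557 FPKM at D1, D3, D5 and W1, and 729 and 1888 FPKM at W2 and W3, and neither passed the test (adjusted p of 0.0707 for Gsta3). Groups did not overlap and had means at least 2-fold apart for 9 of the 29 genes, beside 1.76% of all genes. Without W2 12 genes of the list passed, and without D1, D3 or W3 none.

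Hydroxysteroid sulfotransferases of the Sult2a cluster on chromosome 7 act on steroids and bile acids. This cluster too was singled out after its values were seen, so its count partly restates that choice. Of 5 tested genes 4 rose, beside 1.45% of all genes. The summed level was 141, 47.5, 93.02 and 201 FPKM at D1, D3, D5 and W1, and 641 and 2176 FPKM at W2 and W3. Sult2a1 (gene15879, chromosome 7, 13796246 to 13837410) was at 77.6, 21.5, 31.2 and 86.3 FPKM at D1, D3, D5 and W1, and 319.5 and 1278 FPKM at W2 and W3. D3 and D5 were the lowest, and W3 was about 4 times W2. The difference was 3.76 ± 0.72 (SE), adjusted p = 0.0267. Sult2a6 was at 8.21, 6.17, 10.4 and 13.4 FPKM at D1, D3, D5 and W1, and 58.97 and 96.8 FPKM at W2 and W3, a difference of 2.91 ± 0.32 (SE), adjusted p = 0.0113. At 6 and 8 weeks, outside this comparison, the summed level of the cluster was 1.45 and 1.80 FPKM, below every library of the first week. The copies resemble each other and reads may have been split between them. Sult2a1, Sult2a2 and Sult2a5 lost their calls without D3, without D5 or without W3.

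Transport and bile acid genes showed 3 rises among 21 tested (14.3%, beside 1.45% of all genes), with a median of 0.81. Slco1a4, an uptake transporter for organic anions (gene15299, chromosome 6, 141805440 to 141856283), was at 0.241, 0.472, 2.56 and 3.38 FPKM at D1, D3, D5 and W1, and 11.8 and 55.6 FPKM at W2 and W3, a difference of 3.54 ± 0.71 (SE), adjusted p = 0.0300. It stood near the level of 3 fragments at D1 and each later library was above the one before. Cyp27a1, the sterol hydroxylase of the alternative route of bile acid synthesis (gene854, chromosome 1, 74713148 to 74737896), was at 16.4, 13.8, 17.5 and 20.2 FPKM at D1, D3, D5 and W1, and 44.96 and 289.7 FPKM at W2 and W3. The first week held a narrow range and W3 was about 6 times W2. The difference was 2.70 ± 0.63 (SE), adjusted p = 0.0413. Slc27a5, the ligase that activates bile acids for conjugation, was at 83.98, 80.7, 129 and 104 FPKM at D1, D3, D5 and W1, and 206 and 448 FPKM at W2 and W3 (log2 difference 1.63, SE 0.34, adjusted p = 0.0336). Cyp7a1, the rate-limiting enzyme of the classic route, was at 5.52, 9.18, 11.7 and 29.3 FPKM at D1, D3, D5 and W1, and 3.83 and 111 FPKM at W2 and W3, with W2 below and W3 above the first week and no call. Slc22a27, an organic anion transporter outside this list, was at 1.01, 2.48, 4.21 and 8.17 FPKM at D1, D3, D5 and W1, and 24.5 and 52.1 FPKM at W2 and W3 (log2 difference 3.11, SE 0.58, adjusted p = 0.0260), and Aspg, an asparaginase, at 8.59, 9.34, 8.66 and 6.96 FPKM at D1, D3, D5 and W1, and 44.5 and 83.2 FPKM at W2 and W3 (log2 difference 2.73, SE 0.26, adjusted p = 0.00832). The first-week values of Aspg lay close together, and its call held in every alternative that was run. None of the 3 bile acid calls held without D1, without D3, without D5 or without W3.

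In sugar metabolism 1 of 16 genes rose (6.25%) and 3 fell (18.8%), beside 1.45% and 9.36% of all genes. Khk (ketohexokinase), which starts fructose breakdown, was at 67.8, 64.04, 118 and 159 FPKM at D1, D3, D5 and W1, and 295 and 353 FPKM at W2 and W3, a difference of 1.75 ± 0.39 (SE), adjusted p = 0.0364. Pkm, the pyruvate kinase gene of fetal and non-hepatocyte tissues, was at 87.9, 87.8, 77.2 and 78.1 FPKM at D1, D3, D5 and W1, and 29.9 and 23.6 FPKM at W2 and W3, with narrow groups far apart (log2 difference -1.60, SE 0.17, adjusted p = 0.0113). Hk1, a hexokinase that red cells and most other tissues use, was at 25.2, 29.9, 11.7 and 10.3 FPKM at D1, D3, D5 and W1, and 2.602 and 1.67 FPKM at W2 and W3 (log2 difference -2.57, SE 0.44, adjusted p = 0.0227). D1 and D3 were the highest, as in erythroid genes and in cell cycle genes such as Ube2c. The cell type behind this order was not tested. Hk2 fell as well, at 2.37, 1.63, 1.63 and 1.43 FPKM at D1, D3, D5 and W1, and 0.289 and 0.435 FPKM at W2 and W3. Pklr, the liver pyruvate kinase, was at 28.7, 68.4, 87.7 and 61.6 FPKM at D1, D3, D5 and W1, and 115 and 38.9 FPKM at W2 and W3, with no call. The list median was -0.01, which turned to 0.05 after quantile normalization and 0.19 with median ratios. Pck1, the control enzyme of glucose synthesis, was at 424, 467, 687 and 577 FPKM at D1, D3, D5 and W1, and 1488 and 1324 FPKM at W2 and W3 (log2 difference 1.41, SE 0.25, adjusted p = 0.0239), the only rise among 15 genes of gluconeogenesis and glycogen (6.67%). Me1, malic enzyme, which supplies reducing power for fat synthesis, was at 5.14, 3.91, 5.45 and 5.304 FPKM at D1, D3, D5 and W1, and 13.4 and 27.9 FPKM at W2 and W3 (log2 difference 1.79, SE 0.28, adjusted p = 0.0210), the only rise among 16 lipogenesis genes (6.25%). Khk, Pck1, Me1 and Hk1 lost their calls without D3 and without W3, and Pkm without W3.

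Among regulators Nr1i3 (CAR), a nuclear receptor that senses foreign compounds, was at 51.2, 40.5, 60.5 and 58.4 FPKM at D1, D3, D5 and W1, and 124 and 99.5 FPKM at W2 and W3, a difference of 1.08 ± 0.22 (SE), adjusted p = 0.0306. Zbtb20, a repressor known to act on the Afp gene, was at 1.79, 1.46, 2.22 and 2.56 FPKM at D1, D3, D5 and W1, and 5.28 and 5.06 FPKM at W2 and W3, with W2 and W3 close to each other and at about 2 times the highest of the first week (log2 difference 1.05, SE 0.19, adjusted p = 0.0234). Onecut1 (HNF6), a factor of liver and bile duct development, was at 4.798, 4.81, 4.53 and 3.35 FPKM at D1, D3, D5 and W1, and 0.798 and 0.878 FPKM at W2 and W3 (log2 difference -1.54, SE 0.17, adjusted p = 0.0125). These were the 3 calls among 21 hepatocyte transcription factors, 2 rises (9.52%) and 1 fall (4.76%), beside 1.45% and 9.36% of all genes. Hnf4a was at 98.004, 69.4, 86.4 and 75.6 FPKM at D1, D3, D5 and W1, and 89.6 and 149 FPKM at W2 and W3, and Cebpa at 114, 122, 137 and 151 FPKM at D1, D3, D5 and W1, and 121 and 127 FPKM at W2 and W3, with no call. Of 14 clock genes Per1 and Nr1d1 rose (14.3%, beside 1.45% of all genes), with Per1 at 5.81, 3.36, 3.98 and 2.55 FPKM at D1, D3, D5 and W1, and 8.81 and 9.13 FPKM at W2 and W3 (log2 difference 1.06, SE 0.25, adjusted p = 0.0435) and Nr1d1 at 5.296, 5.62, 6.63 and 8.096 FPKM at D1, D3, D5 and W1, and 10.4 and 13.8 FPKM at W2 and W3 (log2 difference 0.83, SE 0.20, adjusted p = 0.0464). The sources used here do not state the time of day at which livers were taken. Both clock calls and those of Nr1i3 and Zbtb20 were lost without D3, without D5 and without W3, and that of Onecut1 without W3.

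Plasma protein genes showed no call. Of 39 tested genes of plasma proteins and coagulation none passed (limma), with a median of 0.22 and a summed level of 120950, 120420, 131340 and 130790 FPKM at D1, D3, D5 and W1, and 155910 and 130880 FPKM at W2 and W3. Ttr (transthyretin) was at 3982, 10035, 10105 and 13502 FPKM at D1, D3, D5 and W1, and 8402 and 7683 FPKM at W2 and W3, and Trf (transferrin) at 10798, 12762, 16608 and 15206 FPKM at D1, D3, D5 and W1, and 17167 and 10057 FPKM at W2 and W3. In complement 1 of 18 genes fell (5.56%, beside 9.36% of all genes), Cfp (properdin), which white blood cells make, at 67.4, 60.7, 66.5 and 56.004 FPKM at D1, D3, D5 and W1, and 39.1 and 37.4 FPKM at W2 and W3 (log2 difference -0.69, SE 0.16, adjusted p = 0.0407). No gene passed among 14 acute phase genes or 13 genes of growth hormone and insulin-like growth factor signalling. Igf1, the growth factor of the postnatal animal, was at 12.5, 38.05, 61.04 and 96.2 FPKM at D1, D3, D5 and W1, and 49.2 and 158 FPKM at W2 and W3. In iron handling 1 of 15 genes fell (6.67%), Tfrc, the transferrin receptor, which is also on the erythroid list, at 45.6, 61.6, 24.6 and 37.1 FPKM at D1, D3, D5 and W1, and 11.03 and 5.82 FPKM at W2 and W3 (log2 difference -2.18, SE 0.38, adjusted p = 0.0228). Of 17 antigen presentation and interferon genes 1 passed (5.88% higher, beside 1.45% of all genes), and the list median of -0.52 lay below that of all genes. This gene, H2-K1, a class I heavy chain, rose, at 162, 116, 150.1 and 149 FPKM at D1, D3, D5 and W1, and 258 and 305 FPKM at W2 and W3 (log2 difference 0.97, SE 0.20, adjusted p = 0.0336), with a second copy of the symbol on a scaffold. Without W2, 2 plasma protein genes, 3 acute phase genes and 1 growth factor gene passed, and Cfp, Tfrc and H2-K1 lost their calls without D3 and without W3.

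In several metabolic lists W2 and W3 left the first week's range on opposite sides, and a mean of both does not show this. Of 23 genes of cholesterol synthesis and uptake 17 (73.9%) were below that range at W2 and above it at W3, beside 3.34% of all genes tested. Fdps, an enzyme of the mevalonate pathway, was at 54.5, 61.5, 69.3 and 77.99 FPKM at D1, D3, D5 and W1, and 24.8 and 634 FPKM at W2 and W3, and Idi1, the enzyme that precedes it, at 20.003, 18.8, 24.96 and 22.3 FPKM at D1, D3, D5 and W1, and 6.07 and 244 FPKM at W2 and W3. Each was at least 2-fold below the first week at W2 and several-fold above it at W3. None of the 23 genes passed the test of the group means, and without W2 19 passed upward. The same split was found in 5 of 10 urea cycle genes, 5 of 11 periportal genes and 9 of 29 genes of amino acid breakdown. Ass1, which joins citrulline and aspartate in the urea cycle, was at 457, 710.2, 553 and 817 FPKM at D1, D3, D5 and W1, and 235 and 3990.5 FPKM at W2 and W3, and Cps1, which starts the cycle, at 95.7, 146, 115 and 139 FPKM at D1, D3, D5 and W1, and 74.7 and 665 FPKM at W2 and W3. Slc7a2, which carries arginine into the cell, was the 1 urea cycle gene that rose, at 20.1, 14.5, 18.7 and 14.6 FPKM at D1, D3, D5 and W1, and 35.01 and 46.3 FPKM at W2 and W3 (log2 difference 1.21, SE 0.21, adjusted p = 0.0227).

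Fatty acid oxidation showed the opposite order. Of 27 genes of oxidation and ketone synthesis with values in all 6 libraries, 14 (51.9%) were above the first week at W2 and below it at W3, beside 4.40% of all genes. Pdk4, which diverts pyruvate from oxidation, was at 13.97, 5.47, 11.2 and 12.4 FPKM at D1, D3, D5 and W1, and 52.8 and 3.96 FPKM at W2 and W3. Fgf21, a hormone of fasting and of the suckling liver, was at 19.3, 3.303, 6.004 and 9.47 FPKM at D1, D3, D5 and W1, and 42.5 and 2.62 FPKM at W2 and W3. No gene of the list passed the test, and its median was 0.04, or -0.01 with globins and mitochondrial transcripts out of the totals. Hamp, the iron hormone hepcidin, was at 2065, 627, 481 and 26.8 FPKM at D1, D3, D5 and W1, and 29.4 and 7781 FPKM at W2 and W3, with the lowest values at W1 and W2. With 1 library at each age the split between W2 and W3 has no replicate check.

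**Figure D5:**
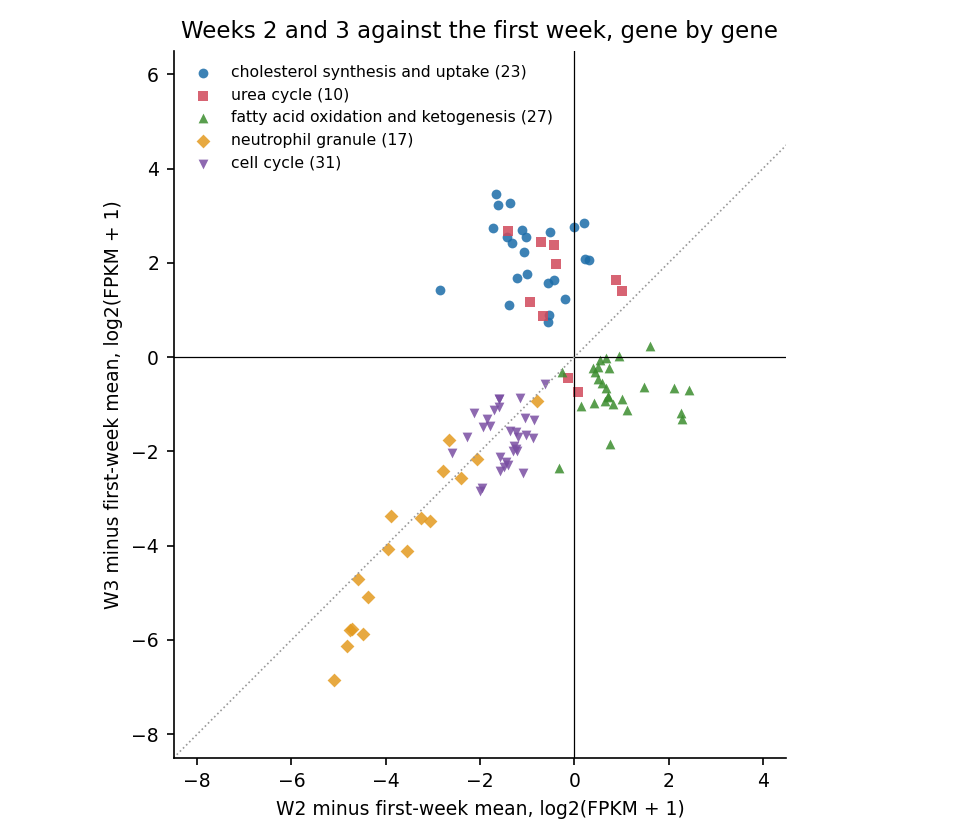
Difference of W2 (horizontal) and of W3 (vertical) from the mean of the 4 first-week libraries, in log2(FPKM + 1), with 1 point per gene for 5 lists and the number of genes in brackets. Cholesterol genes lie in the upper left (17 of 23 outside the first-week range on opposite sides), fatty acid oxidation genes mostly in the lower right, and granule and cell cycle genes along the diagonal in the lower left.

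Of 12 tested genes with sex-biased levels in the adult liver 1 fell (8.33%, beside 9.36% of all genes), Cyp3a41a. The Y-linked gene Ddx3y was at 7.84 to 12.5 FPKM in the 6 libraries and Xist, expressed from the inactive X of females, at 0.0448 to 0.314 FPKM, so that both groups showed the same pattern of these sex markers. The major urinary proteins, a cluster on chromosome 4 under growth hormone control, stayed at or below 9.54 FPKM in each of the 6 libraries, and none of 16 tested passed, while the highest single value at 6 and 8 weeks was 21022 FPKM. The near-identical copies of this cluster share reads, so that each gene's value is uncertain. Zonal markers of the lobule gave 1 call on each side, Cyp2e1 of the pericentral list and Pck1 of the periportal list, each among 11 tested (9.09%, beside 1.45% of all genes). Tdo2, which starts tryptophan breakdown, was at 2.81, 13.02, 30.6 and 34.4 FPKM at D1, D3, D5 and W1, and 68.1 and 501 FPKM at W2 and W3. Its later libraries lay above all of the first week, by 3.58 ± 1.06 (SE) on the log2 scale, and it missed the test, with an adjusted p of 0.0711.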

How the data were processed

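Whole-liver RNA libraries were analysed from 1 table per sample, in which the authors deposited FPKM values for 46966 genes with a status for each estimate, per the file headers. Bowtie 0.12.2, FastQC and the genome build GRCm38.p2 are named in the submitters' processing notes. The program that made the FPKM values and whether counting used strand are not given in the sources used here. Of the entries, 44482 lay on chromosomes and were used, and 2484 on scaffolds were left out. Genes repeated on scaffolds are named as uncertain.

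Values whose status was not OK were set to missing. Genes above 1 FPKM in at least 2 of the 6 libraries were fitted on log2(FPKM + 1) with limma 3.58.1 in R 4.3.3 (with a trend of the spread on the mean), with Benjamini-Hochberg adjustment over all 13162 genes and a threshold of 0.05. A 2-group fit of D1, D3, D5 and W1 against W2 and W3 was used without covariates, since the labels give no batch. Tables used Python 3.11.15, numpy 2.4.6, pandas 2.3.3 and matplotlib 3.10.9. Depth was estimated from the deposited upper confidence bounds of FPKM, read as fragment numbers under counting error. Genes with 1 transcript and 1 exon over 1000 bases in the GENCODE annotation were used, with its lengths. The estimate rests on that reading of the bounds. The limit stated is 3 fragments on 1000 bases, which covers counting error only. On simulated data of 13160 genes for this comparison, 31% of genes changed by 1 on the log2 scale and 77% of those changed by 2 were recovered, and 6.09% of calls were unchanged genes. The draws were independent around 1 mean per gene, with 100 genes above a minimum level changed by each amount. The real libraries are successive ages whose change is shared by many genes, so 6.09% is not the error rate of the real calls.

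The comparison, its members and the 38 gene lists were chosen with earlier results of these data known. Of 615 listed symbols 614 matched, 5 of them by older symbols, and 578 were tested. Genes named were the 12 largest rises and falls past the threshold among genes averaging 10 FPKM or more (predicted genes with Gm, Rik or LOC names, scaffold repeats, and microRNA and snoRNA genes were not eligible), and up to 3 genes past the threshold and the most abundant gene of each list. Other genes were named after their values were seen. Alternatives covered the pseudocount, the filter, scaling, failed estimates, the fit and each library left out.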

Additional observations from a re-analysis of the deposited data

Results flagged for a closer look

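Among the 136 genes tested by name, 7 had a first-week library that stood apart from the other 3 by more than Dixon's limit for the gap over the range. Chance gives about 1 in 20 groups of 4, which is close to that number. C1qc, a chain of complement C1q, was at 188.4 FPKM at D1, above the other ages of the first week, and Nkg7 was at 7.95 FPKM at D5, also above. Col1a2, of type I collagen, was at 44.82 FPKM at D5, the highest of its group. The other 4 were low values: Meg3 at 41.43 FPKM and Rian at 5.485 FPKM at D1, Vpreb1 at 2.949 FPKM at D3 and Grb10 at 60.53 FPKM at W1. Meg3 and Rian are noncoding RNAs of the same imprinted domain.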

How the results depend on the processing

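The 1423 calls (191 higher, 1232 lower) rest on few libraries and on the filter. With no filter on low values 24001 genes were tested and 27 passed (12 higher, 15 lower), 23 of them shared with the main result. With a mean of at least 10 FPKM, 476 of 5382 genes passed (83 higher, 393 lower). Quantile normalization gave 826 calls (299 higher, 527 lower), median ratios 1070 (308 higher, 762 lower), and totals without globins and mitochondrial transcripts 1909 (175 higher, 1734 lower). One fit to all 15 libraries gave 958 calls (176 higher, 782 lower), and age in days as a number 3074 (568 higher, 2506 lower). A pseudocount of 0.1 gave 1685 calls, robust estimation of the spread 1400, and failed estimates as deposited left the 1423. Leaving out 1 library at a time gave 27 to 1433 calls, with 6 to 324 higher and 21 to 1260 lower. The lowest came without W3, where W2 is the only later library and its spread is assumed to be like that of the first week. Without D3 there were 168, 167 of them shared, without D5 477, without D1 912, without W2 1172 and without W1 1433.

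Of 108 named genes past the test none changed direction in these alternatives. Of them 94 lost their call without W3, 69 without D3, 49 without D5, 34 without D1, 27 without W2, 11 without W1, 99 with no filter, 27 under quantile normalization, 14 with median ratios and 34 in the fit to all 15 libraries. The 7 named genes that kept it throughout were Cyp2c29, Gabarapl1, Aspg, Stfa2l1, Ngp, Stfa3 and Ltf. No paired analysis was possible because the labels give no replicate numbers and the groups hold different ages. Depth limits genes near 0.174 to 0.184 FPKM, such as Igll1 at W2 and W3.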

Other observations

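Genes outside the lists were read after their values were seen. They are single genes past the test, not a tally of a group. Adh1, the main alcohol dehydrogenase of the liver (gene7778, chromosome 3, 138277645 to 138290691), was at 309, 345, 559 and 570.1 FPKM at D1, D3, D5 and W1, and 1068 and 2434 FPKM at W2 and W3, a log2 difference of 1.91 ± 0.41 (SE), adjusted p = 0.0351 (limma). Adh4, which also oxidises retinol, was at 0.865, 0.701, 2.92 and 3.41 FPKM at D1, D3, D5 and W1, and 7.41 and 28.8 FPKM at W2 and W3, and Aldh2, which clears acetaldehyde in mitochondria, was at 263, 266, 377 and 372 FPKM at D1, D3, D5 and W1, and 554 and 799 FPKM at W2 and W3. Their differences were 2.54 ± 0.59 (SE), adjusted p = 0.0399 and 1.08 ± 0.26 (SE), adjusted p = 0.0454, and in all 3 genes both later libraries lay above the first week. Hsd11b1, which makes active glucocorticoid in the liver, was at 150.3, 194, 234 and 219 FPKM at D1, D3, D5 and W1, and 338 and 458 FPKM at W2 and W3, a difference of 0.997 ± 0.25 (SE), adjusted p = 0.0469. Gabarapl1, a protein of autophagosomes, was at 53.6, 38.5, 49.02 and 46.5 FPKM at D1, D3, D5 and W1, and 201 and 179.8 FPKM at W2 and W3, a difference of 2.01 ± 0.19 (SE), adjusted p = 0.00832. Ang, an angiogenin, and Rnase4, a ribonuclease, share a locus, and their reads cannot be told apart with certainty. Ang was at 72.9, 53.8, 103 and 142 FPKM at D1, D3, D5 and W1, and 267 and 532 FPKM at W2 and W3, and Rnase4 at 219.7, 127, 254 and 277 FPKM at D1, D3, D5 and W1, and 821 and 1110 FPKM at W2 and W3, with differences of 2.10 and 2.18.

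Among single genes that fell, chosen in the same way, Phgdh, the first enzyme of serine synthesis (gene7224, chromosome 3, 98313171 to 98339969), was at 15.5, 35.4, 16.6 and 12.96 FPKM at D1, D3, D5 and W1, and 6.45 and 1.902 FPKM at W2 and W3, a difference of -2.07 ± 0.48 (SE), adjusted p = 0.0397. Slc7a5, the light chain of a transporter for large neutral amino acids, was at 19.5, 23.3, 9.73 and 7.81 FPKM at D1, D3, D5 and W1, and 2.81 and 2.58 FPKM at W2 and W3, and Slc1a5, a glutamine transporter, at 51.8, 46.96, 16.2 and 17.4 FPKM at D1, D3, D5 and W1, and 3.603 and 5.32 FPKM at W2 and W3. Their differences were -1.996 ± 0.42 (SE), adjusted p = 0.0324 and -2.47 ± 0.51 (SE), adjusted p = 0.0320. Odc1, the control enzyme of polyamine synthesis, was at 153, 223, 97.2 and 88.4 FPKM at D1, D3, D5 and W1, and 19.4 and 30.9 FPKM at W2 and W3, a difference of -2.37 ± 0.40 (SE), adjusted p = 0.0225. Cell cycle and erythroid lists fell between the same groups, and their part in these falls was not tested. Rian, a noncoding RNA beside Meg3, was at 5.49, 23.2, 22.1 and 23.9 FPKM at D1, D3, D5 and W1, and 1.9000 and 0.528 FPKM at W2 and W3, a difference of -3.04 ± 0.58 (SE), adjusted p = 0.0268, with a second copy of the symbol on a scaffold.

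Hbb-y was at 4.67, 3.99, 4.24 and 3.82 FPKM at D1, D3, D5 and W1, and 21.5 and 3.79 FPKM at W2 and W3, and Hba-x at 2.65, 1.09, 0.77001 and 1.89 FPKM at D1, D3, D5 and W1, and 6.25 and 1.72 FPKM at W2 and W3, each highest at W2, where the adult chains were far below the first week. Neither passed the test, and the W2 value is 1 library.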
